A study of Mus musculus with 6 samples.

Results

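The Bcl2 family genes followed here encode proteins that decide at the mitochondrial outer membrane whether a cell survives or dies. The 10 genes were taken from a list: the anti-apoptotic Bcl2, Bcl2l1 and Mcl1, the pore-forming effectors Bax and Bak1, and the BH3-only genes Bcl2l11, Bbc3, Pmaip1, Bid and Bad. For each gene the probe set that names only its symbol was used, and where there were several the one with the highest mean over the 6 arrays. That rule found 9 of the 10 genes among 19938 genes, each with 1 probe set. No probe set was assigned to Bax in the annotation used here, so Bax was not analysed here.

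Expression was measured on Affymetrix arrays in BDC2.5 CD4 T cells, whose T cell receptor recognises an antigen of pancreatic beta cells, after their transfer into NOD mice, a strain that develops autoimmune diabetes. The 3 groups were anti-DCIR2-BDC (100 ng of an antibody to the dendritic cell receptor DCIR2 that carries the BDC antigen), anti-DEC205-BDC (100 ng of an antibody to the receptor DEC205 that carries it) and PBS, with 2 arrays each, labelled biological duplicates. The mice were females of 7 weeks, and Thy1.1+CD4+ cells were sorted from the spleen 14 h after injection. An antibody lacking the BDC antigen was not among the groups, so antigen and antibody effects cannot be told apart, and the labels do not say how many mice gave each array. Array numbers below (1 and 2) follow the labels. The labels do not say whether equal numbers share a mouse or day, so the main fit did not pair them.

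In a living T cell, the anti-apoptotic proteins hold the effectors and the BH3-only proteins in check. BH3-only proteins are the sensors of stress, cytokine loss or death receptor signals, and when they outweigh their inhibitors, Bax and Bak form pores that release cytochrome c and start the caspases. Resting T cells are known to depend on IL-7 and Bcl-2, while activated T cells are known to raise Bcl-xL, the product of Bcl2l1, and to be culled through Bim, the product of Bcl2l11.

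Duplicate arrays correlated across probe sets at r = 0.982 for anti-DCIR2-BDC, 0.974 for anti-DEC205-BDC and 0.974 for PBS, and array medians ranged over 5.43 to 5.56 (log2). The defining T cell genes were bright: Cd3e had 11.16 and 11.45 after anti-DCIR2-BDC, 11.57 and 11.71 after anti-DEC205-BDC and 11.96 and 12.12 in PBS (log2 levels). Of the CD8 T cell markers, Cd8a lay between 4.84 and 5.36 over all 6 arrays. Cd8b1 had 6.32 and 6.88 after anti-DCIR2-BDC, 5.86 and 6.19 after anti-DEC205-BDC and 6.87 and 6.50 in PBS, lowest after anti-DEC205-BDC (-0.66 against PBS, unadjusted p = 0.0184, limma adjusted p = 0.129). The mean level of the 9 T cell markers was itself lower with antibody (9.95 and 10.14 after anti-DCIR2-BDC, 10.47 and 10.52 after anti-DEC205-BDC, 10.72 and 10.94 in PBS, log2 of the mean). Of these 9 markers 0 rose and 8 fell after anti-DCIR2-BDC, and 0 rose and 1 fell after anti-DEC205-BDC. Of all genes, 7.82% and 3.53% fell in these comparisons. Before adjustment, limma gave 8 of 9 a p under 0.05 after anti-DCIR2-BDC and 5 of 9 after anti-DEC205-BDC. Between the antibodies it was 7 of 9. All-gene counts were 5603, 4135 and 2036 of 19938, in the same order. Against PBS, Trat1, a T cell receptor adaptor gene, had the largest fall among the 9 markers with both antibodies (-1.72, limma adjusted p = 0.000868, after anti-DCIR2-BDC and -1.04, limma adjusted p = 0.0271, after anti-DEC205-BDC). The 6 dendritic cell markers had mean levels of 4.99 and 5.03 after anti-DCIR2-BDC, 5.06 and 5.06 after anti-DEC205-BDC and 5.04 and 5.09 in PBS, and the 5 measured of 6 B cell markers 5.15 and 5.24, 5.26 and 5.45, and 5.16 and 5.41 in the same order of groups. In both of those lists 0 genes rose and 0 fell against PBS in limma. Before adjustment, 0 dendritic cell markers and 1 B cell marker had a p under 0.05 in each comparison. The 7 macrophage and monocyte markers had mean levels of 5.22 and 5.27 after anti-DCIR2-BDC, 5.46 and 5.53 after anti-DEC205-BDC and 5.51 and 5.52 in PBS. The 5 natural killer cell markers had mean levels of 5.73 and 5.96 after anti-DCIR2-BDC, 6.33 and 6.22 after anti-DEC205-BDC and 6.54 and 6.55 in PBS. Against PBS, 1 was higher (Eomes) and 2 lower (Klrd1 and Prf1) with each antibody, and between the antibodies 0 passed. Of all genes, 17.9% passed after anti-DCIR2-BDC and 8.84% after anti-DEC205-BDC. Of the macrophage and monocyte markers, Cd14 fell after anti-DEC205-BDC (-0.83, limma adjusted p = 0.0341) and 0 of 7 passed after anti-DCIR2-BDC in limma (2 at an unadjusted p under 0.05). The part of the markers' shifts in the results below was not tested. In such bulk samples, fewer cells of a type and less RNA per cell cannot be told apart.

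After anti-DCIR2-BDC the survival genes moved in opposite directions: Bcl2 and Mcl1 fell and Bcl2l1 rose, and the effector Bak1 and the BH3-only gene Bid rose as well. That is 5 of 9 measured genes past an adjusted p of 0.05 (limma, Benjamini-Hochberg over all genes), 3 higher and 2 lower, or 55.6%. Of all genes, 17.9% passed in that comparison (10.1% higher and 7.82% lower). After anti-DEC205-BDC, 1 of 9 passed, Bak1, or 11.1%, close to the 8.84% of all genes that did (5.32% higher and 3.53% lower). Before adjustment, limma gave 6 of 9 a p under 0.05 after anti-DEC205-BDC, beside 4135 of all 19938 genes. The same count after anti-DCIR2-BDC was 5 of 9, beside 5603 of all genes. Between the antibodies 0 of 9 passed in limma, with 3 at an unadjusted p under 0.05, beside 2036 of all genes. Among all genes 0.0201% passed in that comparison, all of them higher after anti-DCIR2-BDC (0% lower). The arrays did not overlap for 6 of 9 genes after anti-DCIR2-BDC against PBS (55.3% of all genes), 6 of 9 after anti-DEC205-BDC against PBS (48.8%) and 4 of 9 between the antibodies (40.2%). Both antibody groups were set against the same PBS arrays, so their changes share that reference. The median size of a change among the 9 genes was 0.79 after anti-DCIR2-BDC, 0.55 after anti-DEC205-BDC and 0.24 between the antibodies (log2 units), beside 0.20, 0.17 and 0.14 over all genes.

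**Figure D1:**
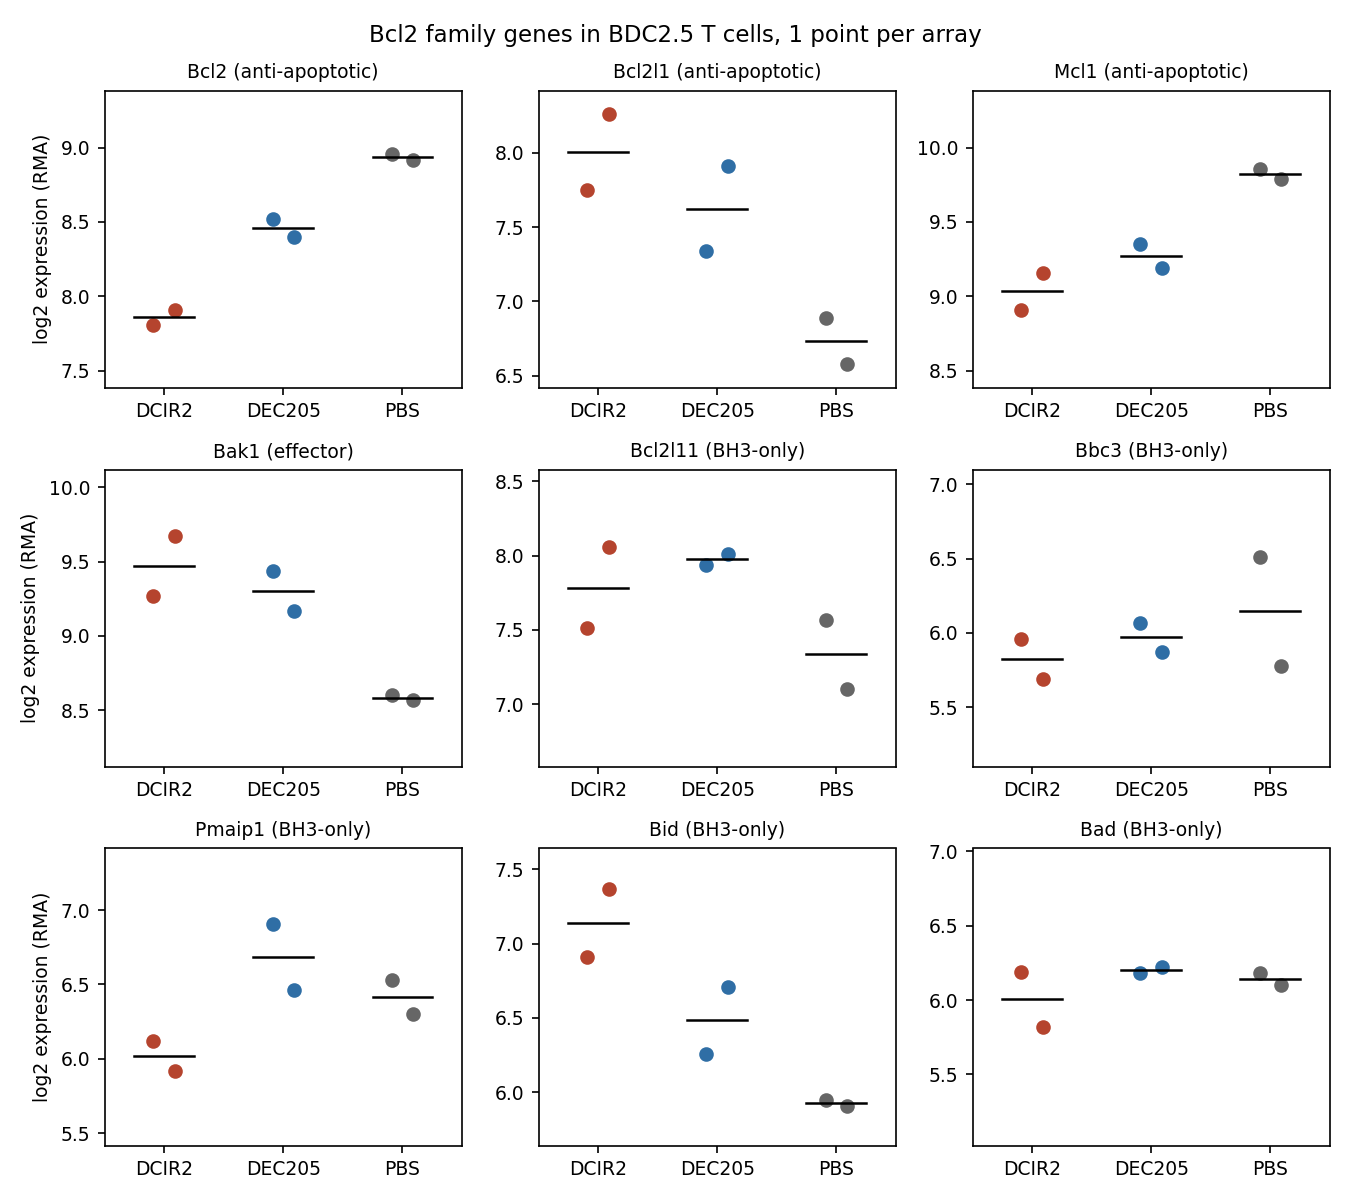
Level of each of the 9 measured Bcl2 family genes (vertical axes, log2 expression after RMA, each panel spanning the same range) in the groups anti-DCIR2-BDC, anti-DEC205-BDC and PBS (left to right). Points are arrays and lines are means of 2 arrays. For Bcl2, Mcl1, Bcl2l1, Bak1 and Bid both antibody groups lie apart from PBS, while Bad and Bbc3 overlap across groups.

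Bcl2 (chr1:106538176-106714290, GRCm38.p6) is the founding survival gene of the family. Its level was 7.81 and 7.91 after anti-DCIR2-BDC, 8.52 and 8.40 after anti-DEC205-BDC, and 8.96 and 8.92 in PBS (log2). The 3 groups did not overlap and their order was the same on every array, lowest after anti-DCIR2-BDC and highest in PBS. Against PBS it fell after anti-DCIR2-BDC by 1.08 on the log2 scale (standard error 0.18), 2.11-fold lower (limma adjusted p = 0.0017), with 7.96% of all genes changing more. It passed in all 17 alternatives, with adjusted p between 0.000506 and 0.0209. After anti-DEC205-BDC the change was -0.48 (95% interval -0.87 to -0.09, limma adjusted p = 0.142). The direct difference between the antibodies, -0.60 (95% interval -0.99 to -0.21), had an unadjusted p of 0.00604 and did not pass over all genes (limma adjusted p = 0.29).

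Mcl1 (chr3:95656944-95663179) encodes a short-lived survival protein that T cells need at most stages of life. It had 8.91 and 9.16 after anti-DCIR2-BDC, 9.35 and 9.19 after anti-DEC205-BDC, and 9.86 and 9.79 in PBS (log2). All 4 antibody arrays lay below both PBS arrays. The antibody groups did not overlap either, with anti-DCIR2-BDC lower, though their nearest arrays (9.16 and 9.19) lay close together. Mcl1 fell after anti-DCIR2-BDC by 0.79 on the log2 scale (standard error 0.17), 1.73-fold lower (limma adjusted p = 0.00738), but did not pass without anti-DCIR2-BDC array 1 (change -0.66, adjusted p = 0.0659). Over the alternatives the adjusted p lay between 0.00202 and 0.0659. After anti-DEC205-BDC the change was -0.55 (95% interval -0.92 to -0.18, limma adjusted p = 0.0718), and it passed with quantile normalization (adjusted p = 0.0314), without the dimmest 30% of genes (0.049) and without the dimmest 50% (0.0329), range 0.0314 to 0.293 over the alternatives. Between the antibodies the difference was -0.24 (95% interval -0.61 to 0.13, limma adjusted p = 0.695).

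Bcl2l1 (chr2:152758732-152833803) encodes Bcl-xL, the survival protein of activated T cells, and went the other way from Bcl2 and Mcl1. It had 7.75 and 8.26 after anti-DCIR2-BDC, 7.34 and 7.91 after anti-DEC205-BDC, and 6.89 and 6.58 in PBS (log2). Both antibody groups lay above PBS, and they overlapped each other, with array 2 the higher one in each. It rose 2.40-fold after anti-DCIR2-BDC (log2 change 1.26, standard error 0.26, limma adjusted p = 0.00583), but did not pass without anti-DCIR2-BDC array 2 (log2 change 1.01, adjusted p = 0.0775), range 0.00232 to 0.0775 over the alternatives. After anti-DEC205-BDC the log2 change was 0.88 (95% interval 0.32 to 1.45, limma adjusted p = 0.0603). That value passed in 5 of 17 alternatives: without anti-DEC205-BDC array 1 (log2 change 1.17, adjusted p = 0.0401), with quantile normalization (0.0493), without the dimmest 30% (0.0413) or 50% (0.0289) of genes, and with the replicate number as a block (0.0472), range 0.0289 to 0.315. Between the antibodies the difference was 0.38 (95% interval -0.19 to 0.95, limma adjusted p = 0.679). The probe set reads the gene as a whole, so the long and short splice forms of Bcl-x were not separated.

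Bak1 (chr17:27019812-27028627), a pore-forming effector, was the 1 measured family gene that passed with both antibodies. Bcl2l1 and Bid also lay above PBS on all antibody arrays, but after anti-DEC205-BDC they did not pass (limma adjusted p = 0.0603 and 0.18). It had 9.27 and 9.67 after anti-DCIR2-BDC, 9.44 and 9.17 after anti-DEC205-BDC, and 8.60 and 8.57 in PBS (log2). All 4 antibody arrays lay above both PBS arrays, and the antibody groups overlapped. Bak1 rose 1.85-fold after anti-DCIR2-BDC (log2 change 0.89, standard error 0.19, limma adjusted p = 0.00823) and did not pass without anti-DCIR2-BDC array 2 (log2 change 0.69, adjusted p = 0.0922), range 0.00292 to 0.0922 over the alternatives. It rose 1.65-fold after anti-DEC205-BDC (log2 change 0.72, standard error 0.19, limma adjusted p = 0.0424). This second call was lost in 7 of 17 alternatives, all with the same direction: without PBS array 1 (adjusted p = 0.123), PBS array 2 (0.132), anti-DEC205-BDC array 1 (0.218), anti-DEC205-BDC array 2 (0.0718) or anti-DCIR2-BDC array 2 (0.0505), with every probe set tested (0.134) and with only the 4 arrays compared (0.0513), range 0.0172 to 0.218. The difference between the antibodies was 0.17 (95% interval -0.26 to 0.59, limma adjusted p = 0.841).

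Among the BH3-only genes, Bid was the 1 of 5 that passed. Bid (chr6:120893119-120917062) encodes a protein that caspase-8 cleaves, linking death receptors to mitochondria. It had 6.91 and 7.37 after anti-DCIR2-BDC, 6.26 and 6.71 after anti-DEC205-BDC, and 5.95 and 5.91 in PBS (log2). The 3 groups did not overlap, with anti-DCIR2-BDC highest and PBS lowest. Bid rose 2.31-fold after anti-DCIR2-BDC (log2 change 1.21, standard error 0.22, limma adjusted p = 0.00329) and passed in all 17 alternatives (0.00167 to 0.0458). After anti-DEC205-BDC the log2 change was 0.55 (95% interval 0.06 to 1.04, limma adjusted p = 0.18). The antibodies differed by 0.66 (95% interval 0.17 to 1.15), with an unadjusted p of 0.0136, and the difference did not pass over all genes (limma adjusted p = 0.372), although 2.82% of all genes differed more.

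Bcl2l11 (chr2:128126038-128162547) encodes Bim, which binds all anti-apoptotic family proteins and removes activated T cells. It had 7.51 and 8.06 after anti-DCIR2-BDC, 7.94 and 8.01 after anti-DEC205-BDC, and 7.57 and 7.10 in PBS (log2). The anti-DEC205-BDC arrays lay above PBS, while those of anti-DCIR2-BDC overlapped it. The log2 changes were 0.45 after anti-DCIR2-BDC (95% interval -0.08 to 0.98, limma adjusted p = 0.263) and 0.64 after anti-DEC205-BDC (95% interval 0.11 to 1.17, limma adjusted p = 0.15), and neither passed in any of the 17 alternatives. Between the antibodies the difference was -0.19 (95% interval -0.72 to 0.34, limma adjusted p = 0.858).

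Pmaip1 (chr18:66458604-66465558) encodes Noxa, a partner of Mcl-1. Its level was 6.12 and 5.92 after anti-DCIR2-BDC, 6.91 and 6.46 after anti-DEC205-BDC, and 6.53 and 6.30 in PBS (log2). The anti-DCIR2-BDC arrays were the lowest, and those of anti-DEC205-BDC overlapped PBS. Against PBS the log2 changes were -0.40 after anti-DCIR2-BDC (95% interval -0.85 to 0.06, limma adjusted p = 0.245) and 0.27 after anti-DEC205-BDC (95% interval -0.18 to 0.72, limma adjusted p = 0.53). The antibodies differed by -0.67 (95% interval -1.12 to -0.21), with an unadjusted p of 0.00816, which did not pass over all genes (limma adjusted p = 0.313).

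Bbc3 and Bad did not pass in any comparison or alternative. Bbc3 (chr7:16308398-16318334) encodes Puma, an inducer of death downstream of p53, and had 5.96 and 5.69 after anti-DCIR2-BDC, 6.07 and 5.87 after anti-DEC205-BDC, and 6.51 and 5.78 in PBS (log2). The PBS arrays lay far enough apart to span nearly all other values. Its log2 changes were -0.32 after anti-DCIR2-BDC (95% interval -0.85 to 0.21, limma adjusted p = 0.449) and -0.17 after anti-DEC205-BDC (95% interval -0.70 to 0.35, limma adjusted p = 0.767). Without PBS array 1 these values were above 0 (0.05 and 0.19), so the data give Bbc3 no direction. Bad (chr19:6941861-6951905) encodes a BH3-only protein that growth factor kinases switch off, and had 6.19 and 5.82 after anti-DCIR2-BDC, 6.18 and 6.22 after anti-DEC205-BDC, and 6.18 and 6.10 in PBS (log2). Its log2 changes were -0.14 after anti-DCIR2-BDC (95% interval -0.54 to 0.26, limma adjusted p = 0.704) and 0.05 after anti-DEC205-BDC (95% interval -0.35 to 0.46, limma adjusted p = 0.923).

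**Figure D2:**
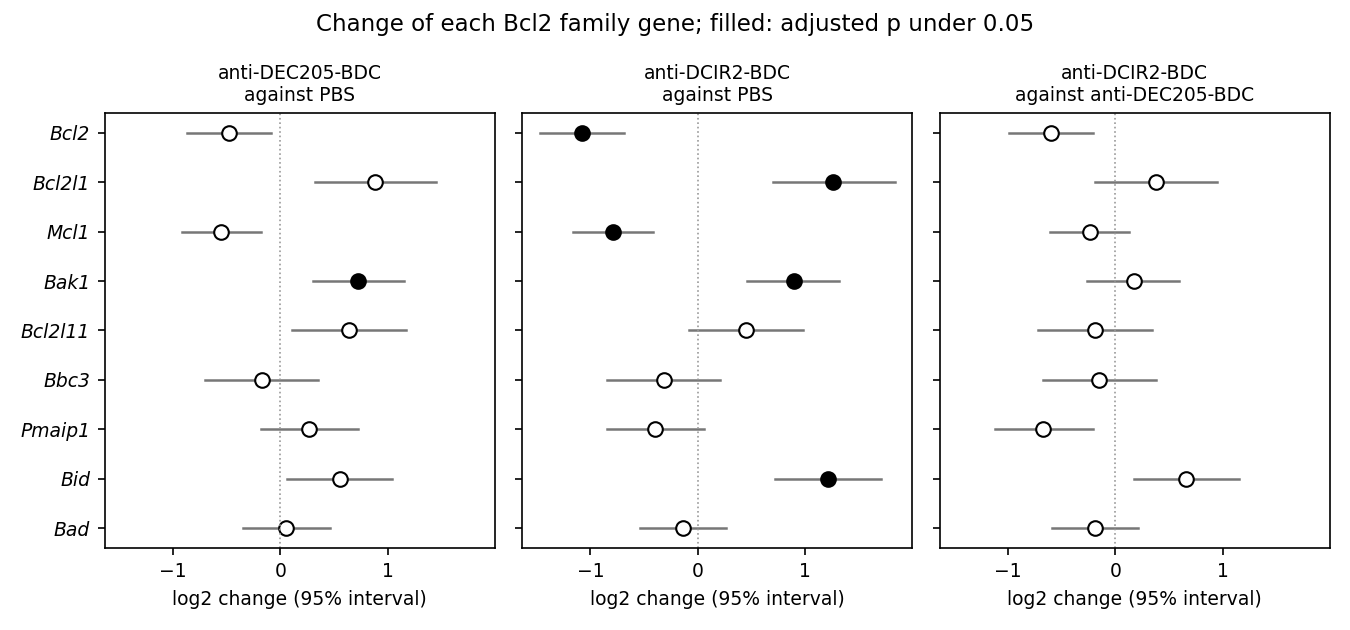
Log2 change (horizontal axes) of each measured Bcl2 family gene in the 3 comparisons, tested over all 19938 genes. Points are changes and lines 95% intervals, with filled points at an adjusted p under 0.05: Bak1 after anti-DEC205-BDC, and Bcl2, Bcl2l1, Mcl1, Bak1 and Bid after anti-DCIR2-BDC.

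The bases before the annotated starts were searched for short patterns. The RefSeq promoter sequences used here gave 15 starts for 9 of the family genes (GRCm38.p6, Bax included, Pmaip1 not shown). In the 250 bases before each, 8 short patterns were sought on both strands. For some genes, among them Mcl1, Bcl2l1, Bbc3 and Bid, every start used lay inside the gene's span given above. The bases before the outermost end of those genes were therefore not fully searched. Shown here are Bcl2, which fell, Bak1, which rose, and Bcl2l11 and Bbc3, the genes with the FOXO letters. FOXO factors are known to switch on Bim and Puma when growth signals cease, and Foxo1 is among the genes measured below. Capitals mark GGGCGG (Sp) for Bcl2, an NF-kB pattern (3 G, any 5 bases, 2 C) for Bak1, and TGTTTAC (FOXO) for the other genes, each on either strand, and of Bbc3 30 bases at its match are given.
Bcl2 (chr1:106714291-106714540, minus strand): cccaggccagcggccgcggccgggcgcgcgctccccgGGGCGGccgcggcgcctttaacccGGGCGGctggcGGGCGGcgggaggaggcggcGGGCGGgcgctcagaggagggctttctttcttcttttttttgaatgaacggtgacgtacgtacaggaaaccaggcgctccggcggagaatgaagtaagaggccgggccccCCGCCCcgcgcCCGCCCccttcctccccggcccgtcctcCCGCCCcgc
Bak1 (chr17:27028628-27028877, minus strand): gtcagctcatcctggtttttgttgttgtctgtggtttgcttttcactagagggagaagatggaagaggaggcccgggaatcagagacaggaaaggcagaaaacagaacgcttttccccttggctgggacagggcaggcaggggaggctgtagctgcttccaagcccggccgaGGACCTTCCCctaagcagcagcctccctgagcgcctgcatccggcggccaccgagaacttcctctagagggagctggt
Bcl2l11 (chr2:128125788-128126037, plus strand): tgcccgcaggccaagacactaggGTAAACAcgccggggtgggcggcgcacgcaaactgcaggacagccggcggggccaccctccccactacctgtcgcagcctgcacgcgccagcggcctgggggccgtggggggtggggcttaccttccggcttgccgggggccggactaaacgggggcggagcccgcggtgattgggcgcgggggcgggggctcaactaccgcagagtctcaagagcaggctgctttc
Bbc3 (chr7:16310083-16310112, plus strand): tctggcgggttTGTTTACaaacaatggggt

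The Bcl2 stretch held GGGCGG 7 times, between 213 and 9 bases before the start, and 10 of the family's 15 starts (7 of 9 genes) had it, beside 32.7% of all 32817 starts. The Bak1 stretch held no GGGCGG and 1 match to the NF-kB pattern, 78 bases before the start. That loose pattern stood before 13 of the 15 starts (all 9 genes) and before 45.8% of all starts, and it can overlap GGGCGG. The FOXO letters TGTTTAC stood before 1 start of Bcl2l11 (227 bases) and 1 of the 3 starts of Bbc3 (167 bases), 2 of the 15, and before 3.16% of all starts. CACGTG (E-box) was found before 2 of the 15 starts, of Bax and Bbc3 (6.02% of all starts), and CCAAT before 4, of Bad, Bbc3 and Bcl2l11 (33.8%). TGANTCA (AP-1, 6.75%), TTCNNNGAA (STAT, 7.01%) and TGACGTCA (CRE, 1.55%) were not in these windows for any of the 9 genes. These are matches of letters and do not show binding.

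Among upstream signals known to act on these genes, Il7r fell and Il2, Il2ra and Rel rose with both antibodies. Of 11 measured genes of upstream signals (13 listed), 4 rose and 2 fell after anti-DCIR2-BDC and 4 rose and 1 fell after anti-DEC205-BDC, with a median change of 0.30 and 0.13. Of all genes, 17.9% passed after anti-DCIR2-BDC (10.1% higher and 7.82% lower). After anti-DEC205-BDC the share was 8.84% (5.32% higher and 3.53% lower). Il7r, the receptor chain for the cytokine that keeps Bcl2 up in resting T cells, had 8.53 and 8.13 after anti-DCIR2-BDC, 9.52 and 8.66 after anti-DEC205-BDC, and 11.17 and 10.76 in PBS (log2). Its changes were -2.64 after anti-DCIR2-BDC (limma adjusted p = 0.000136) and -1.88 after anti-DEC205-BDC (limma adjusted p = 0.00276), of which the second did not pass with every probe set tested (0.0543). Foxo1, a transcription factor of resting T cells, fell after anti-DCIR2-BDC to 6.74 and 7.08, against 8.04 and 8.25 in PBS (log2 change -1.24, limma adjusted p = 0.00182). After anti-DEC205-BDC it had 7.36 and 7.57 (log2 change -0.68, limma adjusted p = 0.0701, between 0.0364 and 0.263 over the alternatives, of which 5 of 17 passed). Il2, the T cell growth factor, rose in both (log2 change 5.31 after anti-DCIR2-BDC, limma adjusted p = 3.39e-05, and 3.57 after anti-DEC205-BDC, limma adjusted p = 0.000512). Its receptor chain Il2ra rose as well (2.33, limma adjusted p = 9.39e-05, and 1.69, limma adjusted p = 0.00166). Rel, an NF-kB subunit known to drive Bcl2l1, rose by a log2 change of 1.23 with each antibody (limma adjusted p = 0.000541 after anti-DCIR2-BDC and 0.0018 after anti-DEC205-BDC). Of 4 measured genes of Mcl-1 and Bim turnover (6 listed), 0 rose and 0 fell with either antibody in limma, and 0 had an unadjusted p under 0.05.

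Downstream of the pore, Cycs, the gene of cytochrome c, which also carries electrons in respiration, had 9.87 and 10.31 after anti-DCIR2-BDC, 9.81 and 9.78 after anti-DEC205-BDC, and 8.17 and 7.92 in PBS (log2). It rose 4.11-fold after anti-DCIR2-BDC (limma adjusted p = 8.69e-05) and 3.36-fold after anti-DEC205-BDC (limma adjusted p = 0.000781). With the mean of its probe sets the log2 change was 1.31 after anti-DCIR2-BDC (2.04 with its brightest) and 1.23 after anti-DEC205-BDC (1.75 with its brightest), and both passed. The group of cytochrome c, apoptosome and caspase genes had 3 of 9 measured members higher and 0 lower after anti-DCIR2-BDC (11 listed), and 2 higher and 0 lower after anti-DEC205-BDC, with medians of 0.18 and -0.05. Of all genes, 10.1% were higher after anti-DCIR2-BDC and 5.32% after anti-DEC205-BDC. The other risers were the mitochondrial flavoprotein gene Aifm1 with both antibodies (1.10 after anti-DCIR2-BDC, limma adjusted p = 0.00297, and 0.95 after anti-DEC205-BDC, limma adjusted p = 0.0141) and the mitochondrial nuclease gene Endog after anti-DCIR2-BDC (1.23, limma adjusted p = 0.00803). The measured caspase genes of that list did not pass in either comparison. The call of Aifm1 after anti-DEC205-BDC was lost without PBS array 1 (adjusted p = 0.0981) or either anti-DEC205-BDC array (0.052 and 0.0682), or with every probe set tested (0.0742). That of Endog was lost without PBS array 2 (0.0558) or anti-DCIR2-BDC array 2 (0.0807), or with every probe set tested (0.0625).

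Of the 5 inhibitor of apoptosis genes 1 fell after anti-DCIR2-BDC, Birc2, the gene of cIAP1 (log2 change -0.99, limma adjusted p = 0.00429), and 0 passed after anti-DEC205-BDC in limma (3 at an unadjusted p under 0.05), with medians of -0.40 and -0.42. In the remaining Bcl2 family, 12 of 15 listed genes were measured. Not measured were Bcl2a1a, Bcl2a1b and Bcl2a1d, so the values leave these genes out. Bnip3l, a mitophagy receptor with a BH3-like region, had 8.0 and 8.40 after anti-DCIR2-BDC, 8.98 and 9.02 after anti-DEC205-BDC, and 9.91 and 9.99 in PBS (log2). It fell with both antibodies (log2 change -1.75, limma adjusted p = 0.00014, and -0.96, limma adjusted p = 0.00981), and the second call was lost without PBS array 2 (0.0511) or with every probe set tested (0.06). After anti-DCIR2-BDC the survival gene Bcl2l2 (0.52, limma adjusted p = 0.0285) and Bcl2l13 (0.66, limma adjusted p = 0.0383) also rose. Leaving out 1 array ended the call of Bcl2l2 for 3 arrays (adjusted p up to 0.191, without anti-DCIR2-BDC array 1, and also without PBS arrays 1 and 2) and that of Bcl2l13 for 4, PBS arrays 1 and 2 and anti-DCIR2-BDC arrays 1 and 2 (up to 0.18). Both calls were also lost with every probe set tested (0.0856 for Bcl2l2 and 0.109 for Bcl2l13). In total the list of the remaining Bcl2 family had 2 higher and 1 lower after anti-DCIR2-BDC and 0 higher and 1 lower after anti-DEC205-BDC, with medians of -0.11 and 0.15. The counts of both lists stand beside 17.9% of all genes that passed after anti-DCIR2-BDC and 8.84% after anti-DEC205-BDC.

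Among p53 and its targets, 10 of 12 were measured, with 2 higher and 1 lower after anti-DCIR2-BDC and the same counts after anti-DEC205-BDC (medians 0.20 and -0.10). Not measured were Trp53, the gene of p53 itself, and Cdkn1a, so the values are of its other listed genes. Of all genes, 17.9% passed after anti-DCIR2-BDC and 8.84% after anti-DEC205-BDC. The nuclease gene Aen rose after anti-DCIR2-BDC (log2 change 1.01, limma adjusted p = 0.00302) and after anti-DEC205-BDC as well (0.75, limma adjusted p = 0.0292), though there its call ended without any 1 of the 6 arrays (adjusted p from 0.0523 to 0.128), over all probe sets (0.0852) or with the 4 arrays alone (0.0505). Trp53inp1, a stress-induced regulator of autophagy and death, fell with both antibodies (-1.73, limma adjusted p = 0.000347, and -1.05, limma adjusted p = 0.0135). The second call of Trp53inp1 was lost without PBS array 1 (0.0638), without anti-DEC205-BDC array 2 (0.0966) or with every probe set tested (0.0796). Zmat3, which encodes an RNA-binding protein, rose after anti-DCIR2-BDC (0.66, limma adjusted p = 0.0395), and its call ended without PBS array 1 (0.257), anti-DCIR2-BDC array 1 (0.0844) or array 2 of that group (0.238), or with every probe set tested (0.114). Sesn2, a stress gene that restrains mTORC1, rose after anti-DEC205-BDC (0.57, limma adjusted p = 0.0341), and its call ended without any 1 of the 6 arrays (0.0599 to 0.171), over all probe sets (0.101) or with the 4 arrays alone (0.0594). After anti-DCIR2-BDC its log2 change was 0.42 (limma adjusted p = 0.0706).

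In the death receptor list of 9 measured genes (10 listed), 2 rose and 1 fell after anti-DCIR2-BDC, and 0 rose and 2 fell after anti-DEC205-BDC (medians -0.05 and 0.04). Of all genes, 17.9% passed after anti-DCIR2-BDC and 8.84% after anti-DEC205-BDC. Tnfsf10, the gene of the death ligand TRAIL, fell with both antibodies (-1.01 after anti-DCIR2-BDC, limma adjusted p = 0.0153, and -0.90 after anti-DEC205-BDC, limma adjusted p = 0.0472). Its first call ended without PBS array 2 (0.0816) or anti-DCIR2-BDC array 1 (0.157), or with every probe set tested (0.0981). Its second was lost in 11 of 16 alternatives. They were those without any 1 array but anti-DEC205-BDC array 2 (0.0671 to 0.257), quantile normalization (0.073), median centring (0.0744), no trend (0.0669), array weights (0.0515), all probe sets (0.201) and the 4 arrays alone (0.0697). After anti-DCIR2-BDC the TRAIL receptor gene Tnfrsf10b rose (0.90, limma adjusted p = 0.0287), and its call ended without either PBS array (0.125 and 0.0684) or either anti-DCIR2-BDC array (0.118 and 0.16), or with every probe set tested (0.122). Fasl, the gene of Fas ligand, rose after anti-DCIR2-BDC (1.16, limma adjusted p = 0.0431), and its call ended without PBS array 2 (0.80, adjusted p = 0.246) or anti-DCIR2-BDC array 2 (0.58, adjusted p = 0.341), over all probe sets (0.18), with a robust trend (0.0505), without a trend (0.061) and with the replicate number as a block (0.0574). Casp8, the protease that cleaves Bid, had 8.29 and 8.33 after anti-DCIR2-BDC, 7.78 and 8.10 after anti-DEC205-BDC, and 8.70 and 8.66 in PBS (log2). Its fall after anti-DEC205-BDC (log2 change -0.74, limma adjusted p = 0.0358) did not pass once any 1 of the 6 arrays was left out (adjusted p from 0.0534 to 0.203), after median centring (0.0604), over all probe sets (0.102) or in a fit of the 4 arrays alone (0.0667). Between the antibodies 0 of the 60 measured genes of these lists passed in limma. Of the 60, 11 had an unadjusted p under 0.05, beside 2036 of all 19938 genes. Il2 passed there when the 4 arrays of the antibodies were fitted alone (log2 difference 1.75, limma adjusted p = 0.0468).

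**Figure D3:**
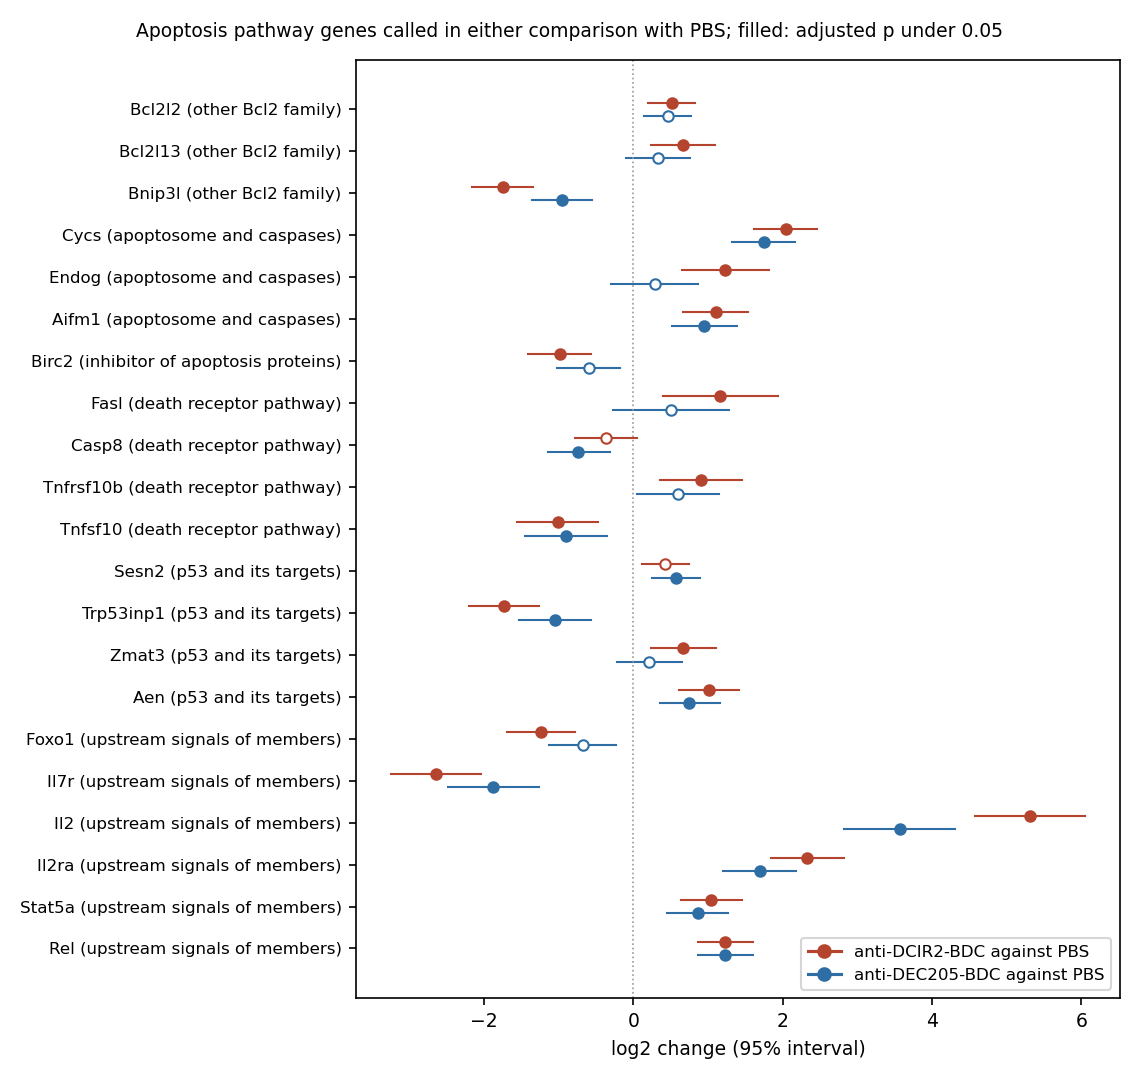
Log2 change (horizontal axis) of the 21 apoptosis pathway genes that passed in at least 1 comparison with PBS, by list. Points are changes after anti-DCIR2-BDC (upper) and anti-DEC205-BDC (lower), lines are 95% intervals, and filled points have an adjusted p under 0.05. Il2 has the largest rise and Il7r the largest fall with each antibody.

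For the 5 genes that passed, the genes with the most similar profile over the 6 arrays were found by the root mean square difference of log2 values centred on each gene's mean. Nearest to Bcl2 were Ubac2 (0.0477), Tspo (0.0501), an outer mitochondrial membrane protein gene, and Plec (0.0553), a cytoskeletal linker gene. Mcl1 lay nearest to Zfp869 (0.041), Tmsb4x (0.0464), which encodes an actin-binding peptide, and Fam149b (0.0515). Bcl2l1 was followed by the proteasome subunit gene Psmb5 (0.0453), Prkcsh (0.0851) and Agpat5 (0.0862). Bak1 was followed by Hook1 (0.0389), the fatty acid elongase gene Elovl1 (0.0566) and Asnsd1 (0.0586), and Bid by Ube2cbp (0.0522), the proteasome subunit gene Psmd11 (0.0615) and Lrrc40 (0.0677). With 6 arrays that share 1 normalization, such likeness is a description of these arrays.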

How the data were processed

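RMA was run by the authors in Partek, as the series' design text records, and gave the deposited log2 values, 1 per probe set (versions not given in the sources used here). Amplification started from 5 ng of RNA, per the labels' protocols, which can add noise. RMA equalises arrays and hides any shift common to every gene. Precision is set by the number of arrays: over all genes, 95% intervals of a log2 change extended by a median of 0.388 each way. Each p-value sets a difference between groups against the spread between arrays of a group. With 2 arrays a group, limma estimated that spread with help from all genes. The p-values cover only these samples.

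Of 35556 probe sets 21789 named 1 symbol, 1621 several and 12146 none here, and those with 1 gave 19938 genes. The tests used limma 3.58.1 (R 4.3.3) on all 6 arrays, with 1 mean per group, a variance trend and Benjamini-Hochberg adjustment over all genes, two-sided, at an adjusted p of 0.05. The code was tested on simulated data. The family genes were named in all comparisons, pathway and marker genes by largest change among those that passed (up to 4 a list), and with them the 3 nearest profiles of each family gene that passed. Chosen with their values in view were Cd3e, Cd8a, Cd8b1, Rel after anti-DCIR2-BDC, and Foxo1, Casp8 and Sesn2 with the antibody where they did not pass. Members and lists were chosen with earlier results of these data known. The 17 alternatives changed scaling, probe sets, filters, variance model, weights, a replicate block and the arrays used. Promoter sequences are RefSeq's (GRCm38.p6).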

Additional observations from a re-analysis of the deposited data

Results flagged for a closer look

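Pmaip1 stood out because its arrays moved to opposite sides of the PBS mean: both anti-DCIR2-BDC arrays (6.12 and 5.92) lay below it and both anti-DEC205-BDC arrays (6.91 and 6.46) above it, with 6.53 and 6.30 in PBS (log2). The difference between the antibodies was -0.67 and did not pass over all genes (limma adjusted p = 0.313, range 0.181 to 0.785 over the alternatives).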

How the results depend on the processing

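The 5 family genes called after anti-DCIR2-BDC were called in every alternative that used all arrays, and leaving out 1 array gave 3 to 5, with 2090 to 3637 genes called in all (3568 with all arrays, 2285 without anti-DCIR2-BDC array 1 and 2090 without array 2 of that group, which also gave the 3). After anti-DEC205-BDC the count of family genes, 1, was 3 with quantile normalization, 3 after dropping the dimmest 30% of genes, 3 after dropping 50%, 2 with a replicate block, 0 with every probe set, 0 with only the 4 arrays compared and 0 to 1 leaving out 1 array. The count over all genes there, 1763, was 694 with every probe set and 997 to 1367 leaving out 1 array (1013 without PBS array 1, 1131 without anti-DEC205-BDC array 1 and 997 without array 2 of that group). Between the antibodies the 4 genes called were 0 with every probe set, 7 after dropping 30% of genes, 9 after dropping 50%, 0 with no trend, 2 with a replicate block and 0 to 27 leaving out 1 array (27 without anti-DEC205-BDC array 2, 1 without array 1 of that group and 0 without either anti-DCIR2-BDC array), and 0 family genes were called in any alternative. The cause of these shifts was not tested. Median centring moved the median change of all genes to 0.06 after anti-DCIR2-BDC (-0.05 without it) and to 0.04 after anti-DEC205-BDC (-0.03 without it). It gave 2394 higher and 1173 lower genes after anti-DCIR2-BDC (2008 and 1560 without it) and 1186 and 498 after anti-DEC205-BDC (1060 and 703), with the same counts of family genes called. Samples with equal replicate numbers had deviations correlated across genes at 0.13 (anti-DCIR2-BDC and PBS), 0.14 (anti-DEC205-BDC and PBS) and 0.07 (both antibodies). These values cannot show whether the arrays were paired. With a replicate block, 3885 genes were called after anti-DCIR2-BDC and 2069 after anti-DEC205-BDC. No call of the family or pathway genes reversed its direction in the alternatives, which were not followed for the marker genes.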
